A study of Mus musculus with 19 samples.

Results

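The mature products of the Mir221 and Mir222 precursors, mmu-miR-221-3p, mmu-miR-221-5p, mmu-miR-222-3p and mmu-miR-222-5p, were taken by name (both arms of each), which gave 4 of the 1148 miRNA names counted. The pair was chosen by the counts of aged SAHA and aged vehicle libraries, between which miR-222-3p passed the test, so every value from that comparison is given here as a description, without a p-value. Small RNA was sequenced from the microdissected CA1 subregion of the hippocampus of WT mice of the strain labelled C57B/6JRj, in 19 libraries of 3 groups. Aged SAHA (6 libraries) were animals of 20 months given SAHA at 0.67 g per L in drinking water with 18 g per L of cyclodextrin. Aged vehicle (5 libraries) were animals of 20 months given water with 18 g per L of cyclodextrin alone. Young vehicle (8 libraries) were animals of 3 months given the same cyclodextrin water. Treatment of the aged animals was oral and lasted 4 weeks; for the young ones the labels state no duration. SAHA (vorinostat) inhibits histone deacetylases, the enzymes that remove acetyl groups from histones. The labels do not give sex, and they do not say whether a library came from 1 animal or from several, so the p-values measure the spread between these libraries.

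A miRNA is cut from a hairpin precursor, and either strand of the cut duplex, the 5p or the 3p arm, can be loaded into an Argonaute protein, where bases 2 to 8 (the seed) pair with target mRNAs. miR-221 and miR-222 are made from neighbouring hairpins that are usually transcribed together, and their 3p arms share a seed and thus largely the same targets, of which the cell-cycle inhibitor Cdkn1b (p27) and the receptor tyrosine kinase Kit are the best known. They are studied mostly in vascular cells, where they act on smooth muscle proliferation and endothelial growth, and in tumours such as glioma. Target mRNAs were not measured here.

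In GRCm38 (mm10) both precursors lie on the minus strand of chromosome X, Mir221 at chrX:19146294-19146388 and Mir222 at chrX:19146893-19146971, with 504 bases between them. Neither overlaps another gene of GENCODE M21, and the nearest annotated gene is the processed transcript Gm14636 on the same strand, 10010 bases away (19156981 to 19167241). The hairpins are shown to place the arms, in RefSeq sequence of the GRCm38.p6 build written 5′ to 3′, with the annotated mature sequences in capitals.

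Mir221: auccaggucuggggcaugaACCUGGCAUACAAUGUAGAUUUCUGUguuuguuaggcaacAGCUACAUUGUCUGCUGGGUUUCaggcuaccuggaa

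Mir222: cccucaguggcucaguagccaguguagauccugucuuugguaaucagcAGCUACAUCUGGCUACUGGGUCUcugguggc

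The RefSeq table gave mature sequences for 3 of the 4 members (not miR-222-5p). They are printed with the seed in capitals to show which products can share targets, together with miR-1928, a product of chromosome 1 (74206562 to 74206578, minus strand) that carries the same seed as the 3p arms.

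miR-222-3p: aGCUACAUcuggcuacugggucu

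miR-221-3p: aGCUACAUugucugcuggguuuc

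miR-1928: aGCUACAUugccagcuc

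miR-221-5p: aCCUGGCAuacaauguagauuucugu

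The 3p arms are identical over their first 8 bases and at 11 of 23 positions when aligned from the 5′ end, so their reads differ downstream of the seed. miR-1928 had 0 counts in all 19 libraries, and among the names counted no other miRNA with a RefSeq mature sequence had the seed of miR-221-3p or that of miR-221-5p. Of the 1148 names counted, 891 had a RefSeq mature sequence, and the others were not checked for a seed. Among the names checked, the seed pool gcuacau was made up of miR-221-3p and miR-222-3p.

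Reads assigned to miRNAs totalled 3585489 to 6808281 per library. Aged SAHA 1 stood apart: its median correlation with its own group was 0.989 across tested miRNAs, where the other libraries had 0.992 (0.9922) to 0.996 (0.9959). It and young vehicle 6 held the lowest miR-222-3p of their groups, and values without both are given where a result rests on them. Levels are in CPM, counts scaled to a common library total. The neuronal miRNA miR-124-3p was at 4846 to 6059 CPM in aged SAHA, 5404 to 5687 CPM in aged vehicle, with 5289 to 5961 CPM in young vehicle. It does not stand for all neuronal miRNAs: the summed neuron-enriched miRNAs, given below, were lower in every aged SAHA library than in every vehicle library. Without miR-128-3p those sums overlapped. CPM were scaled by the TMM method; they compare a miRNA between libraries, and read counts of different miRNAs are not counts of molecules.

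All 4 members were present in every library and passed the filter on low counts. In each of the 19 libraries the order was miR-222-3p, miR-221-3p, miR-221-5p and then miR-222-5p. Over all libraries mmu-miR-222-3p averaged 2922 CPM and ranked 47 of 1148 names, mmu-miR-221-3p averaged 1172 CPM and ranked 73, mmu-miR-221-5p averaged 112 CPM and ranked 199, and mmu-miR-222-5p averaged 28.3 CPM and ranked 296. The least abundant, miR-222-5p, rested on 101 to 197 counts per library, while miR-222-3p had 9690 to 20723.

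miR-222-3p, the main product of the pair, had a lowest value of 1990, a median of 2563 and a highest value of 2998 CPM in aged SAHA. In aged vehicle its 5 values were 3508, 3286, 3559, 3525 and 3149 CPM. In young vehicle the lowest was 2285, the median 2905 and the highest 3326 CPM. All 6 aged SAHA libraries lay below all 5 aged vehicle libraries, whereas young vehicle overlapped both aged groups. The means were 2545 ± 359 CPM in aged SAHA and 3405 ± 179 CPM in aged vehicle (SD, n = 6 and 5), a log2 fold change of -0.42 ± 0.09 (SE), which is 0.747 of the vehicle level. Without aged SAHA 1 and young vehicle 6 it was -0.36 ± 0.07 (SE).

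miR-221-3p, which has the same seed, had a lowest value of 855, a median of 1264 and a highest value of 1384 CPM in aged SAHA. Its 5 aged vehicle values were 1265, 1345, 1253, 1331 and 1173 CPM, and in young vehicle it ran from 922.5 to 1339 CPM with a median of 1097. The aged groups overlapped: 2 of the 6 SAHA libraries lay below all vehicle libraries and 1 lay above them. The log2 fold change for aged SAHA against aged vehicle was -0.11 ± 0.11 (SE), about as large as its error, and -0.04 ± 0.09 without aged SAHA 1 and young vehicle 6.

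Of the 5p arms, that of Mir221 had the lower fold change. miR-221-5p had a lowest value of 82.8, a median of 106 and a highest value of 117 CPM in aged SAHA, against 140, 149, 108, 137 and 102 CPM in the 5 aged vehicle libraries, and 98.5 to 128 CPM (median 112) in young vehicle. Its log2 fold change for aged SAHA against aged vehicle was -0.33 ± 0.11 (SE), with 2 of 6 SAHA libraries below all vehicle libraries. miR-222-5p had a lowest value of 19.4, a median of 33.1 and a highest value of 37.8 CPM in aged SAHA, against 30.5, 27.2, 28.0, 29.4 and 31.6 CPM in aged vehicle, and 20.8 to 30.2 CPM (median 26.5) in young vehicle. It was spread widely under SAHA, with 4 of 6 libraries above and 2 below all aged vehicle libraries, and its log2 fold change was 0.07 ± 0.13 (SE), or 0.17 ± 0.10 without aged SAHA 1 and young vehicle 6.

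**Figure D1:**
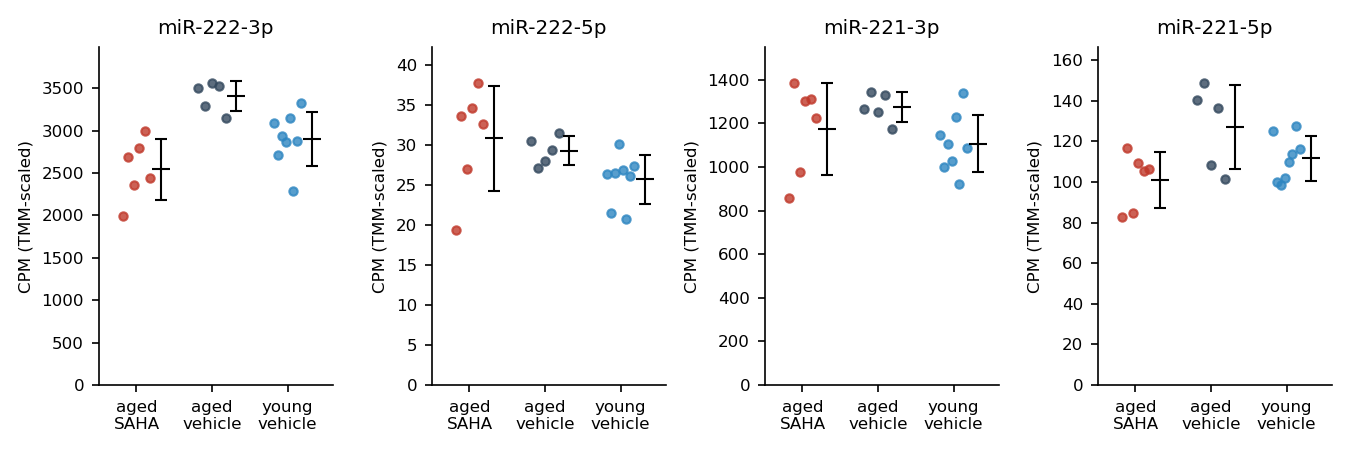
Levels of the 4 members in each library, in CPM on a linear axis from 0 (points, 1 per library), with the mean ± SD of each group beside them in black. The 6 aged SAHA libraries lie below the 5 aged vehicle libraries for miR-222-3p, and the groups overlap for the other 3 members.

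A miRNA counts as called where edgeR's quasi-likelihood test gave an adjusted p under 0.05 (Benjamini-Hochberg over the 509 miRNAs that passed the filter). Between aged SAHA and aged vehicle, 1 of the 4 members was called, where 4.32% of the 509 were called (3.14% as lower and 1.18% as higher), and nothing is read from this count because the call chose the members. Over all miRNAs the calls were 6 higher and 16 lower, and 10 higher and 16 lower with DESeq2's size factors or 11 higher and 16 lower with library size only. In that comparison 22 of the 509 tested miRNAs had a more negative log2 fold change than miR-222-3p, and 42 had a more negative one than miR-221-5p. The groups did not overlap, with SAHA lower, for 17 of 509 miRNAs (3.34%), miR-222-3p among them. The median log2 fold change of the 4 members was -0.22, beside -0.01 over all tested.

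The summed level of miR-221-3p and miR-222-3p, the seed pool, had a lowest value of 2846, a median of 3867 and a highest value of 4310 CPM in aged SAHA. In aged vehicle the 5 sums were 4772, 4631, 4812, 4856 and 4322 CPM. The young vehicle sums ran from 3207 to 4412 CPM with a median of 4128. All 6 aged SAHA sums were below all 5 aged vehicle sums, and 6 of the 8 young vehicle sums were too. Of the reads of both 3p arms, miR-221-3p made up 29.3% to 34.0% in aged SAHA and 26.0% to 29.0% in aged vehicle. Most of each sum was thus miR-222-3p, which chose the pair, so the lower sums under SAHA are not a separate result. The means were 3721 ± 554 CPM in aged SAHA, 4678 ± 217 CPM in aged vehicle and 4011 ± 403 CPM in young vehicle (SD, n = 6, 5 and 8).

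The comparison of age asks whether the same miRNAs differ between animals of 20 and 3 months when both received vehicle. All 4 members had positive log2 fold changes of similar size, and none passed the test (0 of 4 by edgeR, which called 2.16% of all 509, 0.196% as higher and 1.96% as lower). DESeq2, with 20 miRNAs called in all, and limma-voom with quality weights, with 23, also called 0 of the 4. The values were 0.23 ± 0.09 (SE) for miR-222-3p, 0.20 ± 0.10 for miR-221-3p, 0.19 ± 0.12 for miR-222-5p and 0.19 ± 0.11 for miR-221-5p. Adjusted p by edgeR was 0.204 for miR-222-3p, 0.321 for miR-221-3p, 0.439 for miR-222-5p and 0.385 for miR-221-5p, and the unadjusted p of miR-222-3p, 0.0149, was the only one of the 4 under 0.05. For miR-222-3p the means were 3405 ± 179 CPM in aged vehicle and 2904 ± 315 CPM in young vehicle (SD, n = 5 and 8), with 3 of 5 aged libraries above all 8 young ones. For miR-221-3p they were 1273 ± 68.8 CPM in aged vehicle and 1107 ± 132 CPM in young vehicle, with 1 of 5 aged libraries above all young ones. The median of the 4 was 0.20, beside -0.00296 over all tested miRNAs, and 51 of 509 had a higher value than miR-222-3p. This comparison shares its 5 aged vehicle libraries with the one that chose the members, so high values in these libraries enter both, with opposite signs.

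Set against young vehicle, aged SAHA had log2 fold changes of -0.19 ± 0.08 (SE) for miR-222-3p, 0.09 ± 0.10 for miR-221-3p, -0.15 ± 0.10 for miR-221-5p and 0.26 ± 0.12 for miR-222-5p. These share the SAHA libraries with the comparison that chose the members and are given without a test. In order of group means, miR-222-3p was highest in aged vehicle, then young vehicle, then aged SAHA, and each group overlapped its neighbour in that order. miR-221-5p had the same order, with all groups overlapping. miR-221-3p was highest in aged vehicle, then aged SAHA, then young vehicle, and miR-222-5p was highest in aged SAHA, then aged vehicle, then young vehicle, in both cases with overlapping groups.

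**Figure D2:**
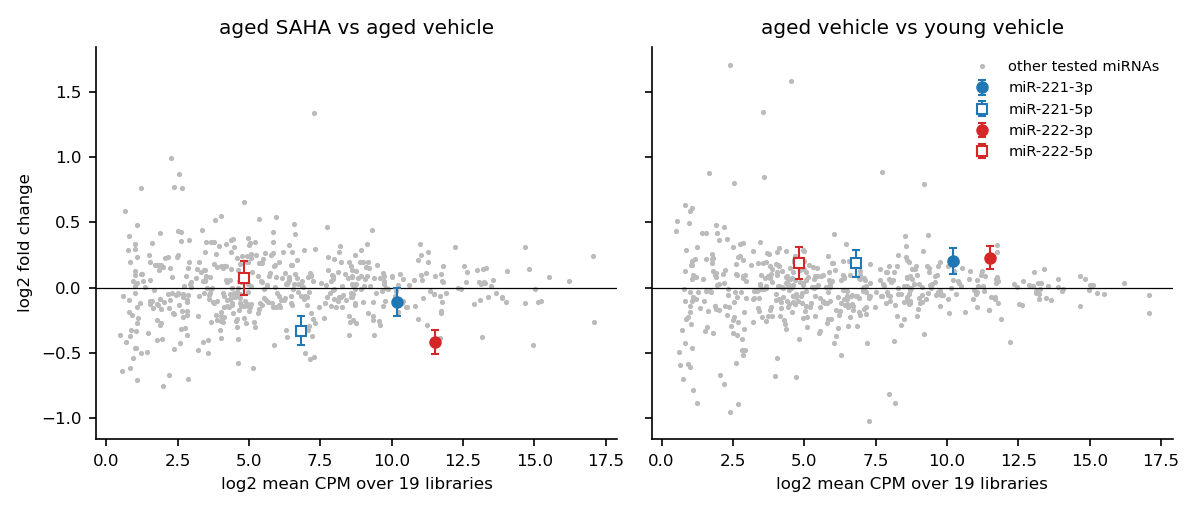
Log2 fold change of every tested miRNA against its log2 mean CPM, for aged SAHA against aged vehicle (left) and aged vehicle against young vehicle (right); grey points are the other tested miRNAs and bars on the 4 members are ± SE. The members spread from -0.42 to 0.07 in the left panel and sit together from 0.19 to 0.23 in the right one.

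Ratios within a library need no scaling between libraries. The count of miR-221-3p per count of miR-222-3p had a lowest value of 0.414, a median of 0.452 and a highest value of 0.514 in aged SAHA, against 0.360, 0.409, 0.352, 0.378 and 0.373 in the 5 aged vehicle libraries. In young vehicle it ran from 0.327 to 0.466 with a median of 0.374. All 6 aged SAHA libraries were above all 5 aged vehicle libraries, and 3 were above all 8 young ones. The denominator is miR-222-3p, which chose the pair, so the higher ratios under SAHA are a description and not a separate result. The mean log2 ratio was -1.12 ± 0.127 in aged SAHA, -1.42 ± 0.083 in aged vehicle and -1.39 ± 0.148 in young vehicle (SD, n = 6, 5 and 8). As a share of the reads of both 3p arms, miR-221-3p made up 29.3% to 34.0% in aged SAHA, 26.0% to 29.0% in aged vehicle and 24.6% to 31.8% in young vehicle.

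The balance of the arms is likewise given as a description for SAHA, since miR-222-3p, which chose the pair, enters the ratio at Mir222. The ratio of miR-222-3p to miR-222-5p counts had a lowest value of 74.6, a median of 80.3 and a highest value of 102 in aged SAHA, against 115, 121, 127, 120 and 99.7 in aged vehicle and 95.0 to 126 (median 114) in young vehicle. Of the 6 aged SAHA libraries, 5 were below every aged vehicle library and below every young vehicle library, and aged SAHA 1 was the exception. The mean log2 ratio was 6.38 ± 0.159 in aged SAHA, 6.86 ± 0.133 in aged vehicle and 6.81 ± 0.125 in young vehicle (SD). For Mir221 the ratio of 3p to 5p ran from 10.3 to 12.5 in aged SAHA (mean 11.6), against 9.01, 9.05, 11.6, 9.74 and 11.6 in aged vehicle and 8.12 to 11.2 (mean 9.95) in young vehicle, and 3 of 6 SAHA libraries were above all aged vehicle libraries. The mean log2 ratio in aged SAHA minus that in aged vehicle was -0.475 for Mir222 and 0.193 for Mir221, where the groups overlapped and the SD in aged vehicle was 0.182.

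**Figure D3:**
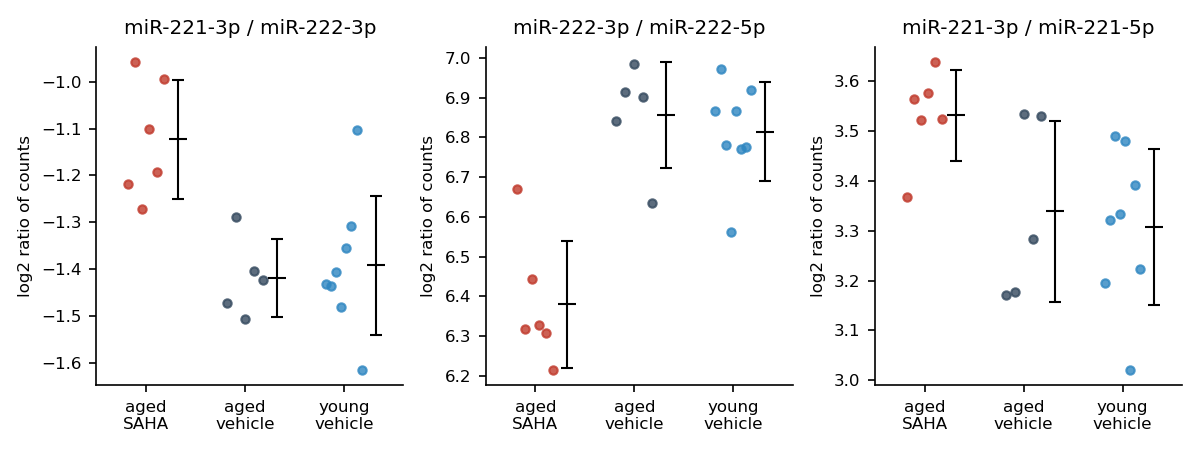
Log2 ratios of read counts within each library (points), with the mean ± SD of each group in black; the axes do not start at 0. All aged SAHA libraries lie above all aged vehicle libraries for miR-221-3p over miR-222-3p, and 5 of 6 lie below them for miR-222-3p over miR-222-5p. Both of these ratios hold miR-222-3p, which chose the pair.

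With age, none of the 3 ratios passed the test. The mean log2 ratio in aged vehicle minus that in young vehicle was -0.03 for miR-221-3p over miR-222-3p (exact two-sided permutation p = 0.763), 0.03 for miR-221-3p over miR-221-5p (exact p = 0.766) and 0.04 for miR-222-3p over miR-222-5p (exact p = 0.615). The Benjamini-Hochberg value over these 3 tests was 0.766 for each. The SDs between libraries within the vehicle groups were 0.083 to 0.182 on the log2 scale, larger than each of these differences.

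Among tested miRNAs, 152 precursors had both arms, and the difference of the log2 fold changes of their arms (3p minus 5p) gives a scale for the balance at Mir222 and Mir221. Between aged SAHA and aged vehicle it was -0.49 for Mir222, the 20th largest in size (rank 20 of 152, and 17 from the lowest), and 0.22 for Mir221, rank 69. The median size was 0.20, so Mir221 was close to the middle. Between aged vehicle and young vehicle the differences were 0.04 for Mir222, rank 120, and 0.02 for Mir221, rank 137, where the median size was 0.10. These ranks describe 152 precursors in the same libraries and are not a test.

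**Figure D4:**
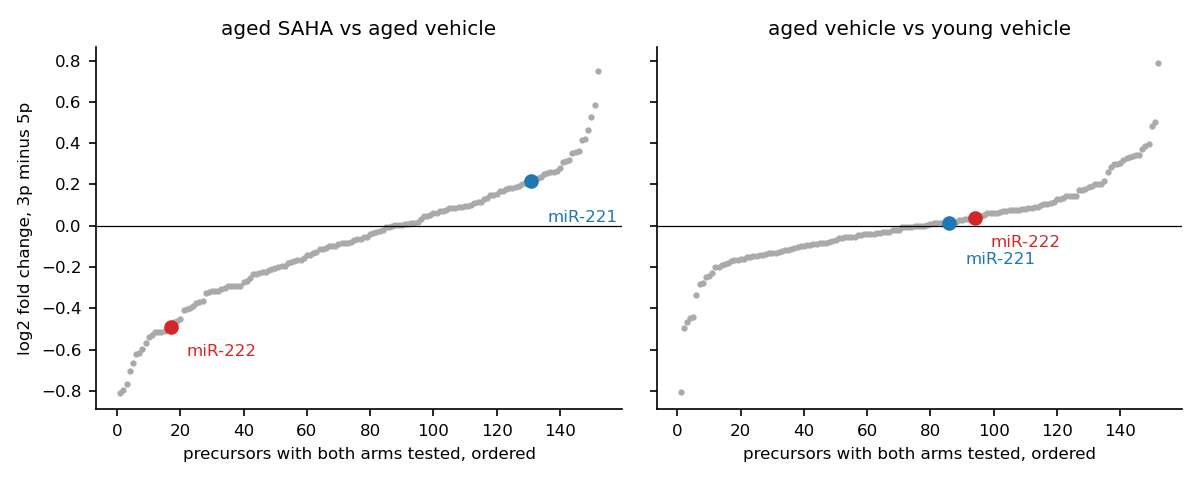
Difference of the log2 fold changes of the arms (3p minus 5p) for the 152 precursors with both arms tested, ordered from lowest to highest, for aged SAHA against aged vehicle (left) and aged vehicle against young vehicle (right). Mir222 is 17th from the lowest in the left panel, and both Mir222 and Mir221 are near 0 in the right one.

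Within groups the members moved together to different degrees. Of the 18 relations computed (6 pairs of members, each within aged SAHA, within young vehicle and over all 19 libraries), the closest within a group by rank was that of the Mir222 arms in aged SAHA. There miR-222-3p and miR-222-5p in log2 CPM had a Pearson r of 0.956 and a Spearman rho of 1.0 (n = 6). Without the 2 libraries farthest from the median, r was 0.826. The aged SAHA libraries entered the choice of the members, so relations within them are given as a description, without a p-value. In young vehicle the same pair had r = 0.742 (n = 8, exact permutation p = 0.0469, adjusted 0.0938) and rho = 0.619 (exact p = 0.115, adjusted 0.207), and r was 0.49 without the 2 farthest libraries. Values pooled over all 19 libraries are given for no pair, because differences between the groups, among them the one that chose the members, enter them.

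The arms of Mir221 had r = 0.973 with rho = 0.829 in aged SAHA (n = 6), again as a description. In young vehicle they had r = 0.507 (n = 8, exact permutation p = 0.206, adjusted 0.248) with rho = 0.452 (exact p = 0.267, adjusted 0.353). Without the 2 farthest libraries r was 0.777 in aged SAHA and 0.502 in young vehicle.

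The 3p arms of the neighbouring precursors had r = 0.901 with rho = 0.829 in aged SAHA (n = 6), given as a description. In young vehicle they had r = 0.609 (n = 8, exact permutation p = 0.0938, adjusted 0.13) with rho = 0.619 (exact p = 0.115, adjusted 0.207). Without the 2 farthest libraries, aged SAHA 1 and 3, r in aged SAHA was 0.528, so the relation there rested on these libraries, which were low in both miRNAs at 1990 and 2359 CPM of miR-222-3p and 855 and 977 CPM of miR-221-3p. The 3 remaining pairs had r of 0.787 to 0.945 in aged SAHA (n = 6) with rho of 0.6 to 0.829, and r of -0.409 to 0.257 without the 2 farthest libraries. In young vehicle they had r of 0.0446 to 0.497 (n = 8, exact permutation, adjusted p 0.248 to 0.924) with rho of -0.143 to 0.262 (adjusted p 0.623 to 0.752).

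**Figure D5:**
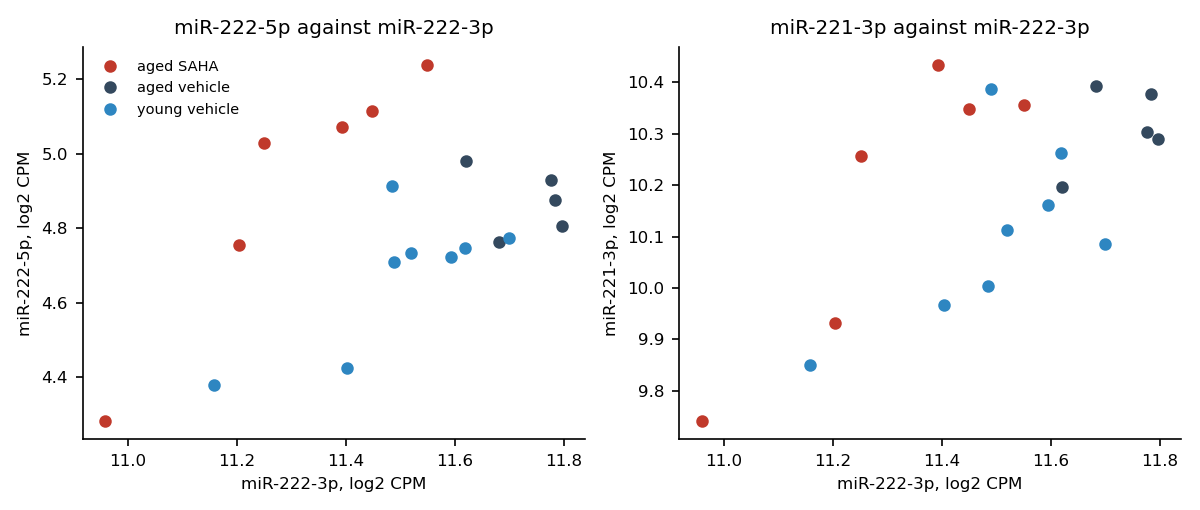
miR-222-5p (left) and miR-221-3p (right) against miR-222-3p in log2 CPM, 1 point per library, coloured by group. In the left panel 5 of the 6 aged SAHA libraries have less miR-222-3p for their miR-222-5p than any vehicle library; aged SAHA 1 is the exception.

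By Pearson r of log2 CPM over the 19 libraries after each group mean was subtracted, the miRNAs most like miR-222-3p were miR-218-5p (0.871), a neuron-enriched miRNA, miR-323-3p (0.826), its own partner arm miR-222-5p (0.81), miR-409-3p (0.796) and miR-376c-3p (0.779), where the median over the other tested miRNAs was -0.0018. Of these, miR-323-3p, miR-409-3p and miR-376c-3p derive from the imprinted Dlk1-Dio3 cluster, as does miR-337-5p in the next list. miR-221-3p ranked 7 for likeness to miR-222-3p (0.762), and miR-221-5p ranked 82 (0.429). Those most like miR-221-3p were miR-218-5p again (0.846), miR-337-5p (0.804), miR-222-3p (0.762), miR-222-5p (0.747) and miR-212-5p (0.733), with miR-221-5p at rank 6 (0.712). Without aged SAHA 1 and young vehicle 6, r with miR-222-3p was 0.611 for miR-218-5p, 0.612 for miR-409-3p, 0.569 for miR-222-5p, 0.54 for miR-323-3p and 0.528 for miR-376c-3p. Without them, r with miR-221-3p was 0.762 for miR-218-5p, 0.765 for miR-212-5p, 0.708 for miR-337-5p, 0.512 for miR-222-3p and 0.424 for miR-222-5p. Values of 1 library share its total count and its dissection, and no p is given for these correlations.

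Marker miRNAs of the cell types that CA1 tissue can hold were set beside the members. In bulk tissue fewer cells of a type and less RNA per cell cannot be told apart. The summed level of 20 neuron-enriched miRNAs (miR-124, miR-9, miR-128, miR-129, miR-137, miR-138, miR-153 and miR-218) ran from 74660 to 80870 CPM in aged SAHA, below all libraries of aged vehicle (87510 to 93110 CPM) and of young vehicle (86560 to 97010 CPM). In this list 3 of 20 tested were called lower and 0 higher between aged SAHA and aged vehicle, where 3.14% of all 509 were called lower, with a median log2 fold change of -0.10 beside -0.01 over all tested. Those called were miR-153-5p, miR-128-3p and miR-9-3p. Over all libraries miR-9-5p averaged 38684 CPM and miR-128-3p 31834 CPM, so the summed level rested mainly on these and not on all 20 names alike. Without miR-128-3p, the most abundant of the 3 called, the sums were 48410 to 55630 CPM in aged SAHA, overlapping aged vehicle (53340 to 58200 CPM). miR-218-5p itself, the closest to miR-222-3p within groups, had a log2 fold change of -0.03 between aged SAHA and aged vehicle. The part of neuronal cells in the lower miR-222-3p was not tested.

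Endothelial and mural miRNAs (miR-126, miR-143, miR-145, miR-199 and miR-214), listed because miR-221 and miR-222 are known from vessel walls, summed to 26810 to 61420 CPM in aged SAHA, 26100 to 53320 CPM in aged vehicle and 26060 to 65730 in young vehicle. The groups overlapped. Between aged SAHA and aged vehicle, and between aged vehicle and young vehicle, 0 of 9 tested were called in either direction. Of all 509, 4.32% and 2.16% were called in these comparisons, so 0 of 9 does not set this list apart. The median log2 fold changes of the list were 0.25 and -0.11 in the same comparisons. The part of vascular cells in the levels of the members was not tested.

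Microglial and immune miRNAs summed to 3523 to 6516 CPM in aged SAHA, 3721 to 4644 in aged vehicle and 3403 to 4338 in young vehicle. The sums of oligodendrocyte miRNAs were 3752 to 8127 CPM in aged SAHA, 4065 to 5644 in aged vehicle and 3351 to 4521 in young vehicle. Erythrocyte miRNAs reached 2363 to 3172 CPM in aged SAHA, 2622 to 3121 in aged vehicle and 2786 to 4050 in young vehicle. Those of choroid plexus and ciliated epithelium, with 1 of 10 names at 0 throughout, had 2661 to 3794 CPM in aged SAHA, 2366 to 3729 in aged vehicle and 2433 to 3991 in young vehicle. In these 4 lists all groups overlapped and no member was called between aged SAHA and aged vehicle. Between aged vehicle and young vehicle 1 of 9 immune miRNAs was called higher and 1 lower, with 0 of 6 oligodendrocyte, 0 of 5 erythrocyte and 0 of 7 choroid plexus and ciliated miRNAs called. Of all 509, 0.196% were called higher and 1.96% lower with age, and 4.32% in either direction for SAHA. In lists this short, 0 calls do not set a list apart from these shares.

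Other miRNAs of chromosome X gave the local background of the pair. Of 120 names with a RefSeq position only on that chromosome, 35 had no count in any library and 37 were tested. Between aged SAHA and aged vehicle 0 of 37 were called higher and 0 lower, where 1.18% and 3.14% of all 509 were. The median log2 fold change was -0.04, beside -0.01 over all tested. Between aged vehicle and young vehicle 0 of 37 were called higher and 3 lower, where 1.96% of all 509 were called lower, with a median of -0.04 beside -0.00296 over all tested.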

How the data were processed

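The authors deposited unnormalised read counts, as whole numbers for each mature miRNA. Per the submitters' processing notes, CASAVA 1.8.2, cutadapt, STAR, HTSeq and mm10 were used; order, settings, the miRNA annotation and the handling of reads matching several miRNAs are not given there. The 4 HTSeq summary lines were 0 and left out. Totals are thus reads assigned to miRNAs, and reads carry no molecular identifiers.

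filterByExpr (minimum count 10, minimum total 15) kept 509 of 1148 names. Scaling was by TMM, and edgeR 4.0.16 (R 4.3.3) gave the quasi-likelihood test, robust, with a term for each group and all 19 libraries. The SE is the log2 fold change over the square root of F. Ratios used log2 counts with 0.5 added. Correlations within groups used exact pairings; those over 19 libraries (100000 permutations) were computed, count in the adjustment over 18, and are not reported. The fit was tested on simulated data. Sequences are from RefSeq (GRCm38.p6) and neighbouring genes from GENCODE M21.

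The members, lists and tests were chosen with earlier results of these data known. miRNAs were named if they were members, had the seed of a member, or were among the 5 most like miR-222-3p or miR-221-3p. The names miR-153-5p, miR-9-3p, miR-9-5p, miR-128-3p and miR-124-3p were added after their values were seen. Alternatives were other scalings and filters, DESeq2 1.42.0, limma-voom with quality weights (limma 3.58.1), fits on only the groups compared, each library left out, aged SAHA 1 and young vehicle 6 left out together, and a replicate block. The likeness without those 2 libraries and the neuron-enriched sum without miR-128-3p were added after seeing the data.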

Additional observations from a re-analysis of the deposited data

How the results depend on the processing

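The log2 fold changes of the 4 members in the 3 comparisons kept their direction with each of the 19 libraries left out and under 9 other alternatives, and none of the age values passed the threshold (adjusted p 0.0628 to 0.602). For miR-222-3p, aged SAHA against aged vehicle gave -0.47 to -0.36 with 1 library left out and -0.42 to -0.35 otherwise; for miR-222-5p it was 0.01 to 0.17 and 0.07 to 0.17. The age differences of 2 ratios, all near 0, changed sign. miR-221-3p over miR-222-3p was 0.0033 with the replicate block and -0.06 to 0.014 with 1 library left out. miR-221-3p over miR-221-5p was -0.025 with the replicate block, -0.0089 without aged SAHA 1 and young vehicle 6, and -0.017 to 0.074 with 1 library left out. The cause was not tested.

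The number of miRNAs called between aged SAHA and aged vehicle, 22, was 39 with DESeq2, 46 with limma-voom and 37 without aged SAHA 1 and young vehicle 6, and 11 to 33 with 1 library left out (11 without aged SAHA 6, 13 without aged vehicle 1, 14 without aged vehicle 3). For age, 11, it was 20, 23 and 18 in the same order, 19 with only the groups compared and 8 to 14 with 1 library left out. Same-numbered libraries had correlations of deviations of -0.319 to 0.321, and in 6 of 32 cases a library matched its own number best. These values gave no sign that the replicate numbers pair libraries. They cannot exclude a pairing, since the labels do not say what the numbers mean. With the replicate block 15 were called for SAHA and 8 for age, and miR-222-3p was -0.39 ± 0.09 (SE). At 101 to 197 counts, miR-222-5p and its ratio have the largest counting error of the members.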
